A study of Homo sapiens with 4 samples.

Results

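The 2 libraries compared here are HCC827 cells sensitive to gefitinib and H1975 cells sensitive to osimertinib, 2 of the 4 libraries of the series. Both are established human lung adenocarcinoma lines, and both drugs are inhibitors of the EGFR tyrosine kinase. The other 2 libraries are the resistant partners, H1975 resistant to osimertinib and HCC827 resistant to gefitinib. Each group is 1 mRNA library made from extracted RNA, so the sensitive pair has no replicate and no p-value of its own. The labels give neither drug doses, nor the presence of drug at harvest, nor whether a resistant line is 1 clone. Genes were kept where at least 1 file of each line listed them, which left 15171 of the 17490 genes listed in any file. A kept gene with no row in 1 of the files was taken as 0 there. Of these, 12199 had at least 1 FPKM and at least 20 counts in the same sensitive library and were considered. A gene could pass through 1 line alone, so counts of members called in lists of low level are partly set by this filter.

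EGFR is a receptor tyrosine kinase that is activated by ligands such as amphiregulin and epiregulin and signals through the MAPK cascade to immediate early genes and feedback phosphatases. Activating mutations of EGFR make lung adenocarcinoma cells depend on it, and both lines carry such mutations. Adenocarcinoma cells keep parts of the programme of airway and alveolar epithelium, including keratins, tight junctions, mucins and the lineage factor NKX2-1. They may also express mesenchymal and matrix genes. Interferons act on such cells through factors that include STAT2 and IRF9, which bind a short promoter element, the interferon-stimulated response element (ISRE).

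The values are RSEM expected counts, which are estimated reads per gene, and FPKM, which also corrects for transcript length and for the total of the library. The 2 sensitive libraries held 22145163 counts (H1975) and 10934558 counts (HCC827), so a gene at a given level has fewer counts in HCC827. Ratios below are HCC827 over H1975 in counts scaled to library totals, with an exact 95% interval that covers counting error only. A gene was called where both its scaled counts and its FPKM differed at least 2-fold in the same direction and the interval lay beyond 0 on the log2 scale. By this rule 1599 genes (13.1% of 12199) were higher in HCC827 and 2097 (17.2%) were lower, 30.3% in either direction. These shares are the background for every list count below. The median log2 ratio over all considered genes was −0.13. The annotations differ: the full transcript lists, predicted models included, were the same in both lines for 4276 considered genes (35.1%), and among these 13.6% were called higher and 19.0% lower. A gene with non-whole counts shares reads with another gene, and is marked below as one with shared reads. Of 8 epithelial markers, 7 in H1975 and all 8 in HCC827 reached 1 FPKM, with summed levels of 2999 and 7001 FPKM. Blood markers summed to 11.3 and 5.93 FPKM, and 2 and 1 of 7 reached 1 FPKM. These were CSF1R (6.09 FPKM) and CD14 (3.43 FPKM) in H1975 and LYZ (4.57 FPKM) in HCC827, while CD3E and HBB were at 0 in both. Fibroblast markers summed to 15.3 and 1.88 FPKM (1 of 5 in each line), and endothelial markers to 1.31 and 0.79 FPKM (1 and 0 of 4).

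Beside the sensitive pair, 2 further readings are given. The resistant pair compares the other HCC827 and H1975 libraries by the same rule. There 15.3% of 11992 considered genes were higher in HCC827 and 15.2% lower. A fit over all 4 libraries (edgeR's quasi-likelihood test, with terms for line and drug response) asked whether the lines differed on average over both states. It called 900 of 13445 genes (6.69%) higher and 669 (4.98%) lower, 11.7% in all, at a Benjamini-Hochberg adjusted p under 0.05. With any 1 library left out, and so without the response term, edgeR called 0 genes, while 1186 to 1858 were higher and 1058 to 1921 lower at an unadjusted p under 0.05. That fit is no test of the sensitive pair alone. It includes both sensitive libraries, and many genes named below were picked by their ratios in those libraries. An adjusted p of such a gene is therefore no separate support for its difference.

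**Figure D1:**
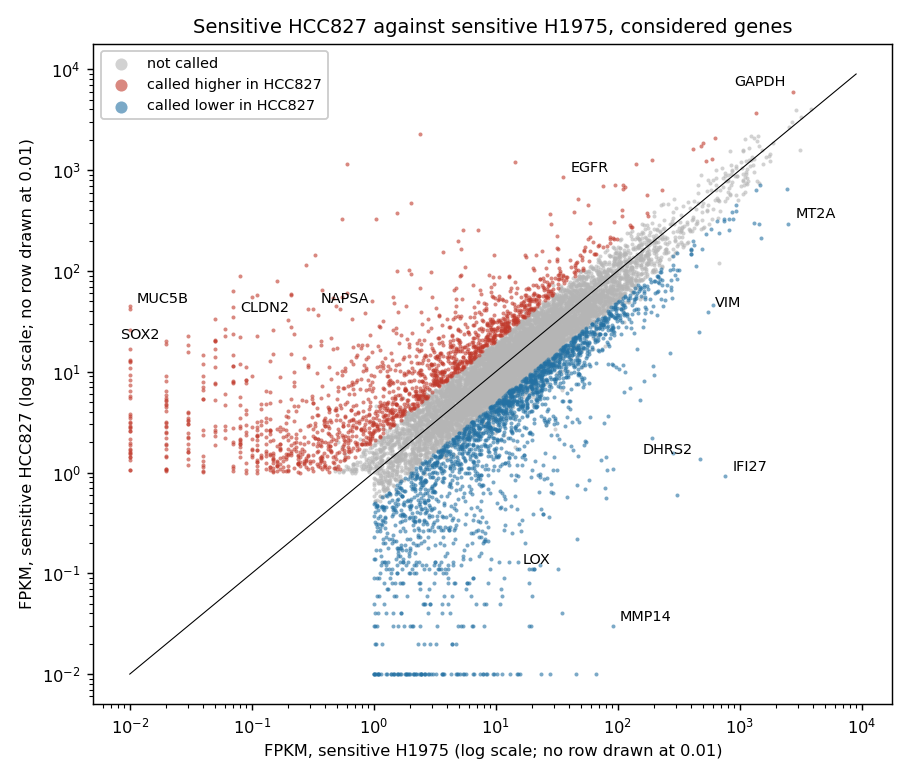
Each point is 1 of the 12199 considered genes, with its FPKM in sensitive H1975 on the x axis and in sensitive HCC827 on the y axis, both on log scales. Red and blue points are the 1599 genes called higher and the 2097 called lower in HCC827. EGFR stands well above the diagonal, and IFI27 and MMP14 stand far below it.

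Interferon response genes were lower in HCC827, and some of their promoters are shown first because they carry a recognisable sequence. The ISRE was searched as GAAANNGAAA on both strands in the 250 bases before each gene start, in RefSeq promoters of the GRCh38.p14 assembly. A promoter was found for 23 of the list's 31 considered genes, and 14 of them (60.9%) held the element, against 3.07% of all 27305 promoters searched. The element was in 10 of 16 promoters of called genes and in 4 of 7 of uncalled genes. The 4 stretches below belong to the 4 called genes with a match and the largest differences in level. Each is in the direction of its gene, with 1 match in capitals. The promoters of IFI27, IFITM1, BST2 and IFI6 held 2, 1, 2 and 3 matches. In BST2 another match overlaps the one in capitals. In IFI27 the match in capitals is on the other strand and is read as its reverse complement.
IFI27, chr14:94110618-94110647, plus strand: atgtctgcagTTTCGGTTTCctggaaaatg
IFITM1, chr11:313990-314019, plus strand: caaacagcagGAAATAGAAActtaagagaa
BST2, chr19:17405741-17405770, minus strand: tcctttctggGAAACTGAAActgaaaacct
IFI6, chr1:27672329-27672358, minus strand: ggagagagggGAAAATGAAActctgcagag
The matches in capitals end 99, 31, 121 and 147 bases before the start of IFI27, IFITM1, BST2 and IFI6. A match describes letters in a window and not a bound site.

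Of 31 considered interferon response genes, 0 were called higher and 22 were called lower in HCC827, with a median log2 ratio of −1.36, against 13.1% and 17.2% of all genes. IFI27, which is induced by interferon alpha, had 10454 counts in H1975 and 5 in HCC827 (759 and 0.92 FPKM, log2 ratio −10.01 [−11.63, −8.79]). MX2, an antiviral GTPase, had 8.22 and 0.25 FPKM (log2 ratio −5.04 [−6.26, −4.05], shared reads), and IFITM2, which blocks viral entry, had 52.6 and 1.89 FPKM (log2 ratio −4.77 [−5.62, −4.04], shared reads). IFITM1, of the same family, had 97.5 FPKM in H1975 and 11 FPKM in HCC827 (shared reads). BST2, which tethers virus particles to the cell, had 143 FPKM in H1975 and 16.8 FPKM in HCC827, and IFI6, a protein of the endoplasmic reticulum, had 234 FPKM in H1975 and 44.9 FPKM in HCC827. In a bulk library, fewer expressing cells and less RNA per cell cannot be told apart. These last 3 genes are named for the promoters above, after their values were seen. The 9 uncalled members included STAT2 and IRF9, transcription factors of the pathway itself, named here for their role: STAT2 had 10.7 and 13.5 FPKM (log2 ratio 0.39 [0.25, 0.53]) and IRF9 had 36.3 and 30.2 FPKM (log2 ratio −0.27 [−0.41, −0.12]). In the resistant pair 0 and 29 of 31 were higher and lower, with a median of −4.08, and the 4-library fit placed 8 of 31 lower. IFI27 passed that fit (edgeR, adjusted p = 0.00592).

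The MHC class I pathway, which presents peptides to CD8 T cells, was lower in HCC827 for 11 of 16 genes and higher for 0 (median −1.32). HLA-B had 460.2 FPKM in H1975 and 24.7 FPKM in HCC827 (log2 ratio −4.22 [−4.36, −4.08], shared reads). B2M, the light chain of the class I molecule, had 746 FPKM in H1975 and 313 FPKM in HCC827 (log2 ratio −1.26 [−1.31, −1.21]). ERAP2, which trims peptides before loading, had 23.2 FPKM in H1975 and 0.97 FPKM in HCC827 (log2 ratio −4.58 [−4.99, −4.20], shared reads), and NLRC5, the transactivator of class I genes, had 9.53 FPKM in H1975 and 0.81 FPKM in HCC827 (log2 ratio −3.37 [−3.76, −2.99]). The 4-library fit placed 8 of the 16 lower and 1 higher. Of 13 class I promoters found, 6 (46.2%) held the ISRE, in 3 of 8 of called genes and in 3 of 5 of uncalled genes. For MHC class II, which presents to CD4 T cells, 6 of 8 genes were lower and 0 higher (median −1.92). CD74, the invariant chain of class II, had 2686 counts in H1975 and 9 in HCC827 (log2 ratio −7.20 [−8.33, −6.28]). HLA-DRA had 232 counts in H1975 and 3 in HCC827 (log2 ratio −5.25 [−7.54, −3.69]). The class II difference was not of 1 direction in the resistant pair, where 5 of 9 genes were higher and 1 lower (median 1.47), and the fit called 0 of 8 (edgeR). HLA-DRA had no row in resistant H1975 and had 45 counts in resistant HCC827.

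Cytokine and NF-kappaB genes were lower in HCC827 for 16 of 25 members and higher for 1 (median −1.57). IL32, a proinflammatory cytokine, had 54.1 FPKM in H1975 and 0.69 FPKM in HCC827 (log2 ratio −6.19 [−7.40, −5.20]). CCL2, a monocyte chemoattractant, had 46.2 FPKM in H1975 and 0.75 FPKM in HCC827 (log2 ratio −5.95 [−7.40, −4.82]), and TNF had 94 counts in H1975 and 1 in HCC827 (log2 ratio −5.54 [−10.86, −3.02]). CXCL5, a neutrophil chemoattractant, was the 1 gene higher in HCC827, with 6.47 FPKM in H1975 and 72.2 FPKM in HCC827 (log2 ratio 3.48 [3.31, 3.64], shared reads). In the resistant pair 6 of 26 were higher and 10 lower. A kappaB-like pattern, GGGANNNNCC on either strand, was in 14 of 20 promoters found for this list (70.0%) and in 22.1% of all promoters. It was in 8 of 13 promoters of called members and in 6 of 7 of uncalled ones, and also in 34.8%, 53.8% and 46.2% of the interferon, MHC class I and epithelial promoters. Neither the ISRE (0 of 20) nor the AP-1 pattern TGANTCA (3 of 20, against 6.60% of all) was as frequent there.

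EGFR was far higher in HCC827. It had 4445 counts in H1975 and 59764 in HCC827, that is 35.6 FPKM in H1975 and 850.5 FPKM in HCC827, a 27.2-fold higher scaled count (log2 ratio 4.77 [4.72, 4.81]). In the resistant libraries of H1975 and HCC827 it had 24.6 and 568 FPKM (log2 ratio 4.73), and it passed the 4-library fit (edgeR, adjusted p = 0.00788). Of 9 considered genes of the EGFR family and its ligands, 5 were higher in HCC827 and 1 was lower (median 1.37). The ligand EREG had 5.56 FPKM in H1975 and 109.7 FPKM in HCC827 (log2 ratio 4.30 [4.18, 4.43], shared reads) and the ligand AREG had 7.4 FPKM in H1975 and 65.1 FPKM in HCC827 (log2 ratio 3.14 [2.92, 3.36]). ERBB3, a partner receptor with little kinase activity of its own, had 13.8 FPKM in H1975 and 32.4 FPKM in HCC827 (log2 ratio 1.37 [1.27, 1.46], shared reads). ERBB2, the partner without a known ligand, had 26.1 FPKM in H1975 and 46.3 FPKM in HCC827 and was not called (log2 ratio 0.82 [0.74, 0.90], shared reads). HBEGF, another EGFR ligand, was the gene lower in HCC827, with 4.51 FPKM in H1975 and 0.92 FPKM in HCC827 (log2 ratio −2.29 [−2.96, −1.68]).

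Genes downstream of the MAPK cascade leaned towards HCC827 in the sensitive pair. Of 17 MAPK output genes, 6 were higher and 0 lower (median 0.79), against 13.1% and 17.2% of all genes. The resistant pair had 4 higher and 1 lower (median 0.02), and the 4-library fit placed 2 of 17 higher and 0 lower. DUSP6, a phosphatase that switches ERK off, had 4.24 FPKM in H1975 and 20.1 FPKM in HCC827 (log2 ratio 2.24 [2.05, 2.44]) and, in the resistant libraries, 2.37 and 1.27 FPKM. SPRY1, an inhibitor of receptor tyrosine kinase signalling, had 0.89 FPKM in H1975 and 8.26 FPKM in HCC827 (log2 ratio 2.96 [2.55, 3.40]), and EMP1, an epithelial membrane protein, had 10.5 FPKM in H1975 and 51.6 FPKM in HCC827 (log2 ratio 2.29 [2.16, 2.43]). Of 10 immediate early genes, 3 were higher and 1 lower. In the resistant pair 1 of 9 was higher and 3 were lower (median −0.28), and the 4-library fit placed 1 of 10 higher and 1 lower. EGR1 had 9.64 FPKM in H1975 and 145 FPKM in HCC827 (log2 ratio 3.91 [3.80, 4.03]) and FOS had 0.67 FPKM in H1975 and 7.6 FPKM in HCC827 (log2 ratio 3.50 [2.95, 4.09]). KLF6, a zinc finger factor, was lower, with 50.6 FPKM in H1975 and 8.45 FPKM in HCC827 (log2 ratio −2.58 [−2.73, −2.44]). MYC had 153 and 129 FPKM and was not called (log2 ratio −0.25 [−0.31, −0.20]). Whether drug was present at harvest is not given, so its part in these levels was not tested.

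Other receptor tyrosine kinases and their ligands went both ways, with 6 of 23 higher and 6 lower (median 0.04). MET, the hepatocyte growth factor receptor, had 87 FPKM in H1975 and 205 FPKM in HCC827 (log2 ratio 1.27 [1.23, 1.30], shared reads). FGFR3 had 0.65 FPKM in H1975 and 12.7 FPKM in HCC827 (log2 ratio 4.27 [3.90, 4.67]) and FGFR4 had 5.08 FPKM in H1975 and 17.9 FPKM in HCC827 (log2 ratio 1.89 [1.70, 2.09], shared reads). The growth factor FGF2 had 0.04 FPKM in H1975 and 2.65 FPKM in HCC827 (log2 ratio 5.84 [4.77, 7.17], shared reads). On the other side, AXL, the receptor for GAS6, had 16.9 FPKM in H1975 and 4.74 FPKM in HCC827 (log2 ratio −1.91 [−2.12, −1.71], shared reads), and its relative TYRO3 had 11.7 FPKM in H1975 and 2.52 FPKM in HCC827 (log2 ratio −2.22 [−2.51, −1.93], shared reads). ROS1 had 208 counts in H1975 and 0 in HCC827, which is 34.2-fold lower against a floor of 3 counts. AXL was not called in the resistant pair (log2 ratio 0.98, 33.1 and 64.5 FPKM).

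**Figure D2:**
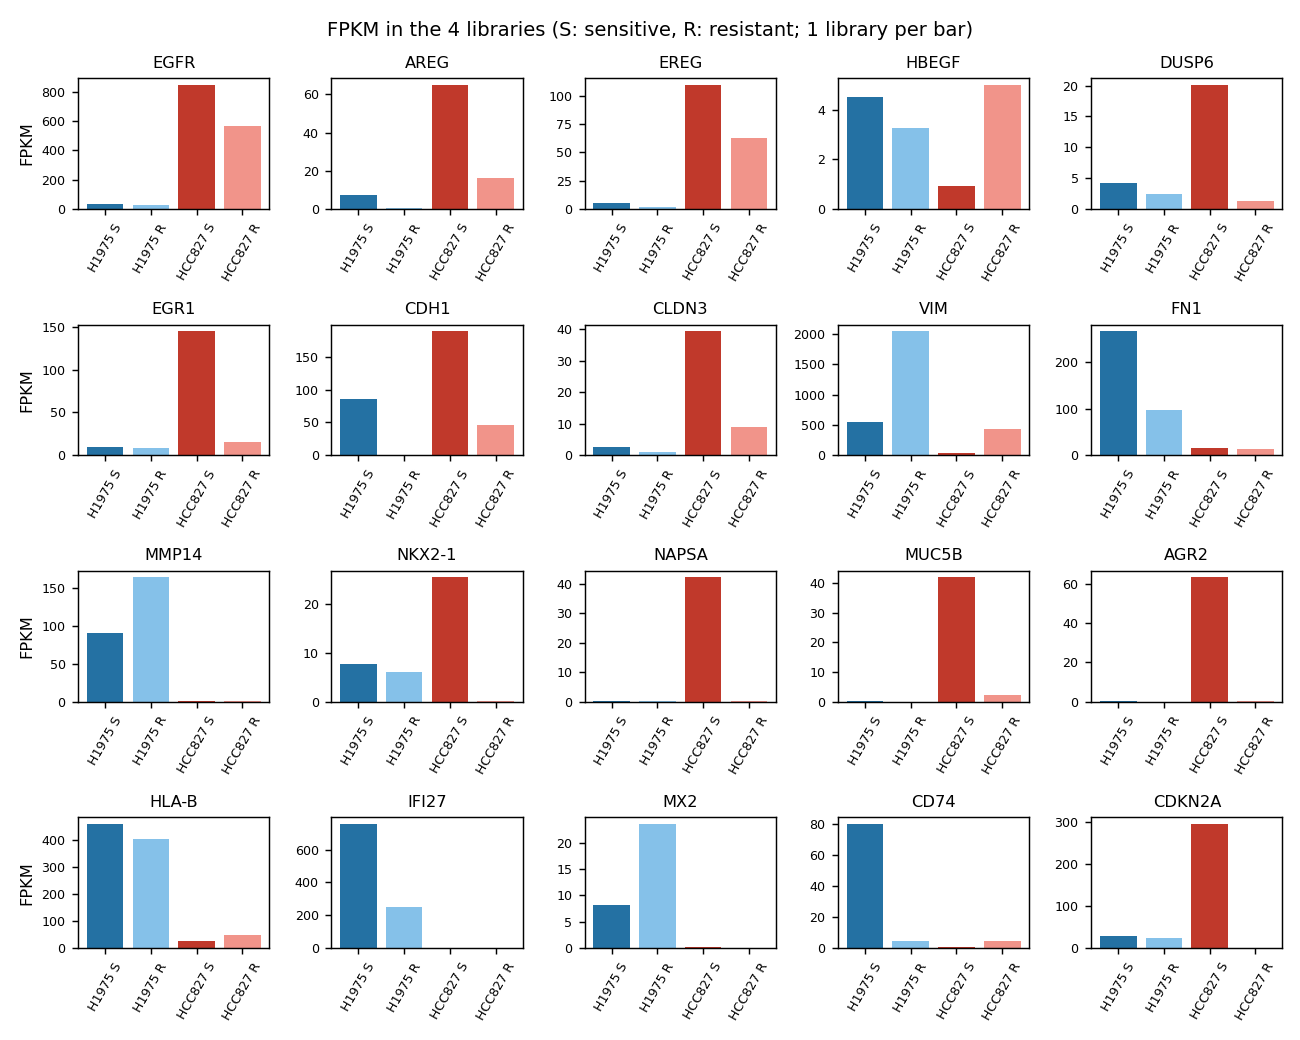
Bars give the FPKM of 20 genes in the 4 libraries, 1 library per bar, with S for sensitive and R for resistant, each panel on its own linear axis from 0. EGFR is at 35.6 and 24.6 FPKM in the H1975 libraries and at 850.5 and 568 in the HCC827 libraries, while CDKN2A and NAPSA are high in sensitive HCC827 alone among the 4.

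Both sensitive lines expressed the epithelial programme, with higher levels in HCC827 for many genes. Of 28 considered epithelial identity genes, 15 were higher in HCC827 and 0 lower (median 1.09). CDH1, which encodes E-cadherin, had 85.6 FPKM in H1975 and 189 FPKM in HCC827 (log2 ratio 1.15 [1.11, 1.20], shared reads). ELF3, an epithelial transcription factor, had 21.5 FPKM in H1975 and 144 FPKM in HCC827 (log2 ratio 2.84 [2.76, 2.93]), RAB25, a GTPase of epithelial recycling endosomes, had 4.72 FPKM in H1975 and 52.4 FPKM in HCC827 (log2 ratio 3.47 [3.19, 3.77]), and the tight junction gene CLDN3 had 2.44 FPKM in H1975 and 39.4 FPKM in HCC827 (log2 ratio 4.02 [3.66, 4.40], shared reads). In the resistant pair 19 of 25 were higher and 0 lower (median 3.04), where CDH1 had 0.73 and 46.3 FPKM. The 4-library fit called 5 of 28 higher. Among 9 keratins 6 were higher and 2 lower. KRT8 had 630.0 FPKM in H1975 and 2082 FPKM in HCC827 (log2 ratio 1.72 [1.70, 1.74], shared reads) and its partner KRT18 had 503 FPKM in H1975 and 1872 FPKM in HCC827 (log2 ratio 1.89 [1.87, 1.92]). KRT81, a hair keratin, had 24.8 FPKM in H1975 and 0.87 FPKM in HCC827 (log2 ratio −4.85 [−5.61, −4.18], shared reads).

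Mesenchymal genes stood the other way. Of 17 considered members, 14 were lower in HCC827 and 0 higher (median −3.11), and the 4-library fit placed 8 lower. VIM, the intermediate filament of mesenchymal cells, had 25973 counts in H1975 and 920 in HCC827, that is 545 FPKM in H1975 and 39.2 FPKM in HCC827 (log2 ratio −3.80 [−3.90, −3.71]), and passed the fit (edgeR, adjusted p = 0.0333). LOX, which crosslinks collagen, had 32.2 FPKM in H1975 and 0.11 FPKM in HCC827 (log2 ratio −8.29 [−9.74, −7.17], shared reads). SPARC, a matrix glycoprotein, had 78.8 FPKM in H1975 and 0.71 FPKM in HCC827 (log2 ratio −6.80 [−7.39, −6.27]). The 2 resistant libraries had VIM at 2051 and 437 FPKM, both above their sensitive partners. In the resistant pair 9 of 16 mesenchymal genes were lower and 1 was higher (median −1.41).

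Genes of the extracellular matrix were mostly lower in HCC827, apart from basement membrane collagens. Of 22 collagens and matrix genes, 14 were lower in HCC827 and 3 higher (median −3.42). COL6A2 had 1575 counts in H1975 and 4 in HCC827 (log2 ratio −7.60 [−9.48, −6.24]), COL5A1 had 5145 counts in H1975 and 34 in HCC827 (log2 ratio −6.22 [−6.76, −5.74]), and COL1A1, the main fibrillar collagen and also a fibroblast marker, had 1979 counts in H1975 and 113 in HCC827 (log2 ratio −3.11 [−3.40, −2.84]). Other defining fibroblast markers were near 0: DCN was at 0 in both sensitive libraries and PDGFRA at 1 and 0 counts. The 3 genes higher in HCC827 were all type IV collagens of the basement membrane. COL4A2 had 7 counts in H1975 and 1483 in HCC827 (log2 ratio 8.75 [7.70, 10.06]), COL4A1 had 19 counts in H1975 and 246 in HCC827 (log2 ratio 4.71 [4.04, 5.47]) and COL4A5 had 118 counts in H1975 and 483 in HCC827 (log2 ratio 3.05 [2.76, 3.35], shared reads). LAMB1, a laminin chain of the same structure, had 2.4 FPKM in H1975 and 67 FPKM in HCC827 (log2 ratio 4.85 [4.68, 5.02]). All 4 passed the 4-library fit (edgeR, adjusted p = 0.00592 for COL4A2, 0.0267 for COL4A1, 0.0451 for COL4A5 and 0.00669 for LAMB1). The wider list of integrins and basement membrane genes went both ways, with 6 of 22 considered members higher and 7 lower (median 0.10).

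Matrix proteases and their inhibitors were split, with 5 of 14 higher and 7 lower. MMP14, a membrane-bound collagenase, had the largest ratio of any called gene lower in HCC827 with at least 10 FPKM. It had 7316 counts in H1975 and 1 in HCC827 (log2 ratio −11.82 [−17.12, −9.34]), and 164 and 0.17 FPKM in the resistant libraries. MMP9, a gelatinase, had 180 counts in H1975 and 3 in HCC827 (log2 ratio −4.89 [−7.18, −3.32]). MMP7, a secreted protease of epithelia, was higher, with 1 count in H1975 and 88 in HCC827 (log2 ratio 7.48 [4.96, 12.80]). SERPINE2, which inhibits thrombin, was higher as well, with 4 counts in H1975 and 104 in HCC827 (log2 ratio 5.72 [4.32, 7.62]).

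**Figure D3:**
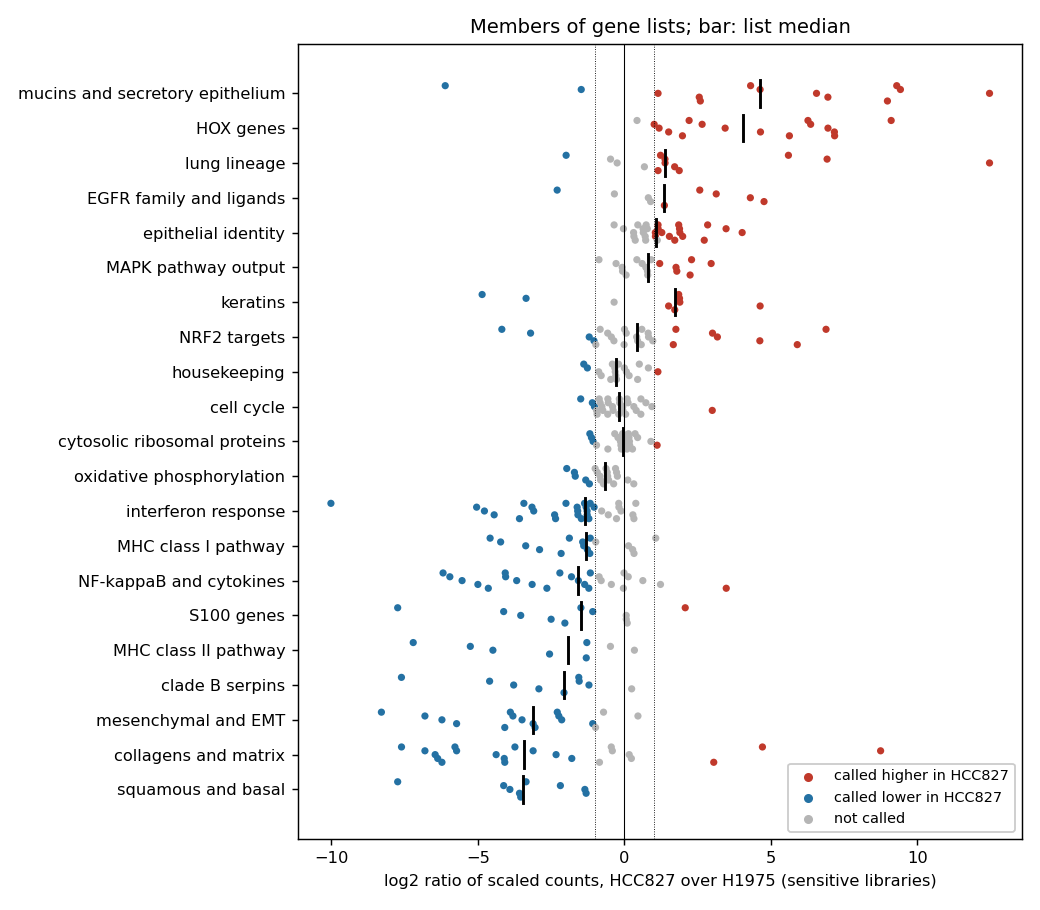
Points are the considered members of 21 gene lists on the log2 ratio of scaled counts, HCC827 over H1975, in the sensitive libraries; red and blue mark members called higher and lower, grey those not called, the bars are list medians and the dotted lines are at 2-fold. Mucins and HOX genes lie mostly to the right, interferon, mesenchymal, matrix and squamous genes mostly to the left, and ribosomal, housekeeping and cell cycle genes around 0.

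Secretory and lung lineage genes were higher in HCC827. Of 13 considered mucins and secretory genes, 11 were higher and 2 lower (median 4.63), and the 4-library fit called 8 of 11 tested higher and 1 lower. MUC5B, a gel-forming airway mucin, had 3 counts in H1975 and 8354 in HCC827 (log2 ratio 12.46 [10.91, 14.74], shared reads). AGR2, a disulfide isomerase needed for mucin folding, had 2 counts in H1975 and 677 in HCC827 (log2 ratio 9.42 [7.56, 12.47]), and CEACAM6, an adhesion molecule, had 4 counts in H1975 and 1241 in HCC827 (log2 ratio 9.30 [7.94, 11.17], shared reads). The 2 lower members were the protease inhibitors WFDC2, with 58.3 FPKM in H1975 and 0.84 FPKM in HCC827 (log2 ratio −6.11 [−7.74, −4.88]), and SLPI, with 47.8 FPKM in H1975 and 17.3 FPKM in HCC827 (log2 ratio −1.47 [−1.77, −1.18]). In resistant HCC827 CEACAM6 had no row, AGR2 had 0.09 FPKM and MUC5B had 2.32 FPKM.

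Of 13 considered lung lineage genes, 9 were higher in HCC827 and 1 lower (median 1.39). MUC5B is counted in this list as well as among the mucins. NKX2-1 had 388 counts in H1975 and 630 in HCC827 (log2 ratio 1.72 [1.53, 1.90]). NAPSA, an aspartic protease of alveolar type II cells, had 12 counts in H1975 and 717 in HCC827 (log2 ratio 6.92 [6.11, 7.88]). FOXA1, a pioneer factor of endoderm, had 34 counts in H1975 and 814 in HCC827 (log2 ratio 5.60 [5.10, 6.14], shared reads). ABCA3, the lipid transporter of lamellar bodies, was the member lower in HCC827, with 7.09 FPKM in H1975 and 1.79 FPKM in HCC827 (log2 ratio −1.99 [−2.26, −1.72]). In the resistant pair the order of NKX2-1 was the opposite, with 5.97 and 0.08 FPKM, and the 4-library fit did not call it (edgeR, adjusted p = 0.764).

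HOX genes, which set position along the body axis, were higher in HCC827. Of 16 considered, 15 were higher in HCC827 and 0 lower (median 4.04), against 13.1% and 17.2% of all genes. The resistant pair had 16 of 18 higher and 1 lower, and the 4-library fit placed 10 of 16 higher. The list had 25 genes in both lines, and its summed level was 16.9 FPKM in H1975 and 152 FPKM in HCC827. Members near 0 in H1975 were considered through HCC827 alone, so the filter partly sets these counts and the median. HOXB7 had 1 count in H1975 and 272 in HCC827 (log2 ratio 9.11 [6.62, 14.41], shared reads), HOXA3 had 13 counts in H1975 and 928 in HCC827 (log2 ratio 7.18 [6.39, 8.09]) and HOXB6 had 2 counts in H1975 and 142 in HCC827 (log2 ratio 7.17 [5.29, 10.23], shared reads). HOXA3 passed the fit with an edgeR adjusted p of 0.00917. SOX2, a factor of airway progenitors and of squamous tumours, had 1 count in H1975 and 516 in HCC827 (log2 ratio 10.03 [7.54, 15.34]).

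In the list of squamous and basal genes, all considered members other than SOX2 were lower in HCC827. Of 10 considered, 9 were lower and 1, SOX2, was higher (median −3.44). The keratins KRT16 and KRT15, which this count does not include, were higher. KRT16 had 0.93 FPKM in H1975 and 22.95 FPKM in HCC827 (log2 ratio 4.63 [4.14, 5.17], shared reads). KRT15 had a log2 ratio of 1.88 [1.57, 2.20] (shared reads), while KRT17 was lower (log2 ratio −3.35 [−4.28, −2.55], shared reads). S100A7 had 431 counts in H1975 and 1 in HCC827 (log2 ratio −7.73 [−13.04, −5.25]) and IVL, a protein of the cornified envelope, had 91 counts in H1975 and 3 in HCC827 (log2 ratio −3.90 [−6.21, −2.31]). Of 11 S100 genes, which encode small calcium-binding proteins, 7 were lower and 1 was higher. S100A9 had 196 FPKM in H1975 and 11.3 FPKM in HCC827 (log2 ratio −4.12 [−4.48, −3.77]), and S100A14 had 13.3 FPKM in H1975 and 55.1 FPKM in HCC827 (log2 ratio 2.08 [1.88, 2.28]) in the other direction. Of 9 clade B serpins 8 were lower and 0 higher (median −2.06). SERPINB2, an inhibitor of plasminogen activators, had 1183 counts in H1975 and 0 in HCC827. That is 195-fold lower against the floor of 3 counts (log2 ratio −7.61, upper limit of the interval −7.30). Between the resistant libraries, squamous genes were higher for 5 of 9 and lower for 3, S100 genes higher for 1 of 9 and lower for 3, and clade B serpins higher for 3 of 8 and lower for 3. SERPINB2 had 10.5 and 30 FPKM in the resistant libraries.

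Complement and acute phase genes were divided. Of 15 considered, 4 were higher and 8 lower. C3, the central complement component, had 191 FPKM in H1975 and 2.18 FPKM in HCC827 (log2 ratio −6.45 [−6.72, −6.19]), and CFB, a factor of the alternative pathway, had 135 FPKM in H1975 and 24.2 FPKM in HCC827 (log2 ratio −2.48 [−2.59, −2.37]). FGB, the fibrinogen beta chain, had 1 count in H1975 and 1786 in HCC827 (log2 ratio 11.82 [9.34, 17.13], shared reads) and passed the 4-library fit (edgeR, adjusted p = 0.00592). That fit called 4 of the 15 higher and 0 lower, and C3 missed its threshold (edgeR, adjusted p = 0.0938). The median of the 15 was −1.06 in the sensitive pair. Between the resistant libraries 9 of 16 were higher and 2 lower, and the median had the opposite sign (2.06).

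Detoxification genes were called in both directions. Of 26 NRF2 targets 7 were higher and 4 lower (median 0.44), against 13.1% and 17.2% of all genes. GPX2, a glutathione peroxidase, had 0.46 FPKM in H1975 and 54 FPKM in HCC827 (log2 ratio 6.88 [6.03, 7.89]), and ABCC2, an efflux transporter, had 0.3 FPKM in H1975 and 18.2 FPKM in HCC827 (log2 ratio 5.90 [5.43, 6.42]). HMOX1, heme oxygenase 1, was lower, with 126 FPKM in H1975 and 6.94 FPKM in HCC827 (log2 ratio −4.18 [−4.45, −3.92]). GSTT1 had 1 count in H1975 and 262 in HCC827 (log2 ratio 9.05 [6.56, 14.36], shared reads), whereas GSTP1, the main glutathione transferase of lung, had 931 FPKM in H1975 and 395 FPKM in HCC827 (log2 ratio −1.24 [−1.29, −1.19]). CYP1B1, which oxidises polycyclic hydrocarbons, had 199.6 FPKM in H1975 and 9.24 FPKM in HCC827 (log2 ratio −4.43 [−4.56, −4.31], shared reads). Families with members called in both directions also included claudins (2 higher, 3 lower of 11) and S100 genes (1 and 7 of 11). With 30.3% of all genes called in either direction, calls both ways do not by themselves set a family apart. CLDN2, the pore-forming claudin, had 5 counts in H1975 and 1121 in HCC827 (log2 ratio 8.83 [7.60, 10.45]), while CLDN11 had 131 counts in H1975 and 3 in HCC827 (log2 ratio −4.43 [−6.73, −2.85], shared reads).

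Cell cycle, ribosomal protein and housekeeping genes were called less often than all genes, of which 30.3% were called in either direction. The other lists in this paragraph were nearer to that share or above it. Of 29 cell cycle genes 1 was higher and 3 lower (median −0.19). CDK1 had 74.8 FPKM in H1975 and 26.8 FPKM in HCC827 (log2 ratio −1.49 [−1.62, −1.36]). Cytosolic ribosomal protein genes (1 higher and 3 lower of 24, median −0.04) and housekeeping genes (1 and 2 of 18, median −0.28) lay near the median of all genes. ACTB had 3857 and 4053 FPKM (log2 ratio 0.07 [0.06, 0.08], shared reads), and GAPDH had 2716 and 6004 FPKM (log2 ratio 1.15 [1.13, 1.16]). Oxidative phosphorylation genes encoded in the nucleus were lower for 5 of 20 and higher for 0 (median −0.67); COX7C, a subunit of cytochrome c oxidase, had 441 FPKM in H1975 and 113 FPKM in HCC827 (log2 ratio −1.96 [−2.10, −1.83]). Of 20 genes of the ATF4 and unfolded protein response 7 were higher and 2 lower (median 0.71). DDIT4, an inhibitor of mTORC1, had 59.3 FPKM in H1975 and 296 FPKM in HCC827 (log2 ratio 2.32 [2.25, 2.39]). SLC7A5, a transporter of large amino acids, had 175 FPKM in H1975 and 568 FPKM in HCC827 (log2 ratio 1.72 [1.70, 1.75], shared reads). Glycolysis and hypoxia genes were higher for 2 and lower for 7 of 29, with CA12, a carbonic anhydrase, at 20.5 and 0.11 FPKM (log2 ratio −7.57 [−9.19, −6.34], shared reads).

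Genes beyond the lists were among the extremes. DSCAML1, a neural adhesion molecule, had no row in sensitive H1975 and had 1964 counts in HCC827, 1327-fold higher against the floor. HNF4G, a nuclear receptor of gut epithelium, had 2 counts in H1975 and 1027 in HCC827 (log2 ratio 10.02 [8.17, 13.07]). FOLR1, a folate receptor, had 1 count in H1975 and 408 in HCC827 (log2 ratio 9.69 [7.20, 15.00]). Among genes lower in HCC827, DHRS2, a short-chain dehydrogenase, had 17481 counts in H1975 and 25 in HCC827 (log2 ratio −8.43 [−9.06, −7.87], shared reads). C1QTNF1 had 3048 and 0 counts, 502-fold lower against the floor (log2 ratio −8.97, upper limit of the interval −8.67). Among the most abundant called genes, the metallothionein MT2A had 2503 FPKM in H1975 and 294 FPKM in HCC827 (log2 ratio −3.09 [−3.17, −3.01], shared reads), and TMSB4X, which binds actin monomers, had 2443 FPKM in H1975 and 647 FPKM in HCC827 (log2 ratio −1.92 [−1.96, −1.87]). MTRNR2L2 and MTRNR2L8 were also among the extremes (log2 ratio 9.90 and 10.89), and all 8 considered MTRNR2L genes were called higher. These are near-identical copies of mitochondrial ribosomal RNA and took 0.486% of counts in HCC827 and 0.000747% in H1975, so their values are uncertain.

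Of the 1599 genes called higher in the sensitive pair, 1005 (62.9%) were also called higher in the resistant pair, 21 were called lower and 573 were not called. Of the 2097 lower genes, 1128 (53.8%) were also lower, 49 were higher and 920 were not called. Seen from the resistant pair, 54.9% of its 1832 higher genes and 61.8% of its 1826 lower genes were called the same way in the sensitive pair. The pairs share no library. The 4-library fit included 1568 of the higher genes and called 761 (48.5%) higher, and it included 2063 of the lower genes and called 642 (31.1%) lower.

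**Figure D4:**
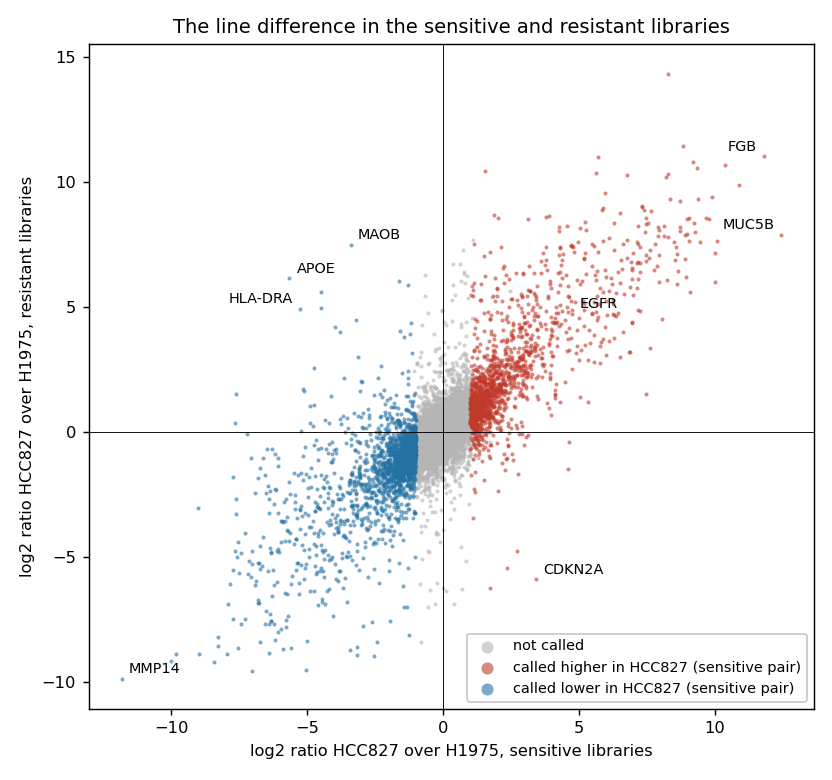
Each point is a gene, with its log2 ratio of HCC827 over H1975 in the sensitive libraries on the x axis and in the resistant libraries on the y axis, coloured by its call in the sensitive pair. Most coloured points lie in the lower left and upper right; CDKN2A lies at lower right, and APOE, MAOB and HLA-DRA at upper left.

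Differences also ran along chromosomes. In windows of 15 neighbouring considered genes, in RefSeq order, 239 of 11863 windows had a median log2 ratio of 1 or more and 545 had −1 or less. Windows past these limits in which at least 80% of genes also lay on the same side of the median of all genes joined into 19 runs of higher and 38 runs of lower genes. The longest run of higher genes was on chromosome 19, from ZNF793 to CEACAM1 (86 genes, 42 called higher, median 0.98). The longest lower run was on chromosome 19, from CTU1 to IL11 (77 genes, 39 called, median −1.07). Medians of these 2 runs in the resistant pair were 1.23 and −1.07. A run on chromosome 12, from PLEKHG6 to C12orf57 (27 genes, median 0.98), holds GAPDH and TPI1, the glycolytic genes called higher. In the run from RPL36A-HNRNPH2 to NUP62CL on the X chromosome (29 genes, median 1.15) the resistant pair had a median of −0.42.

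**Figure D5:**
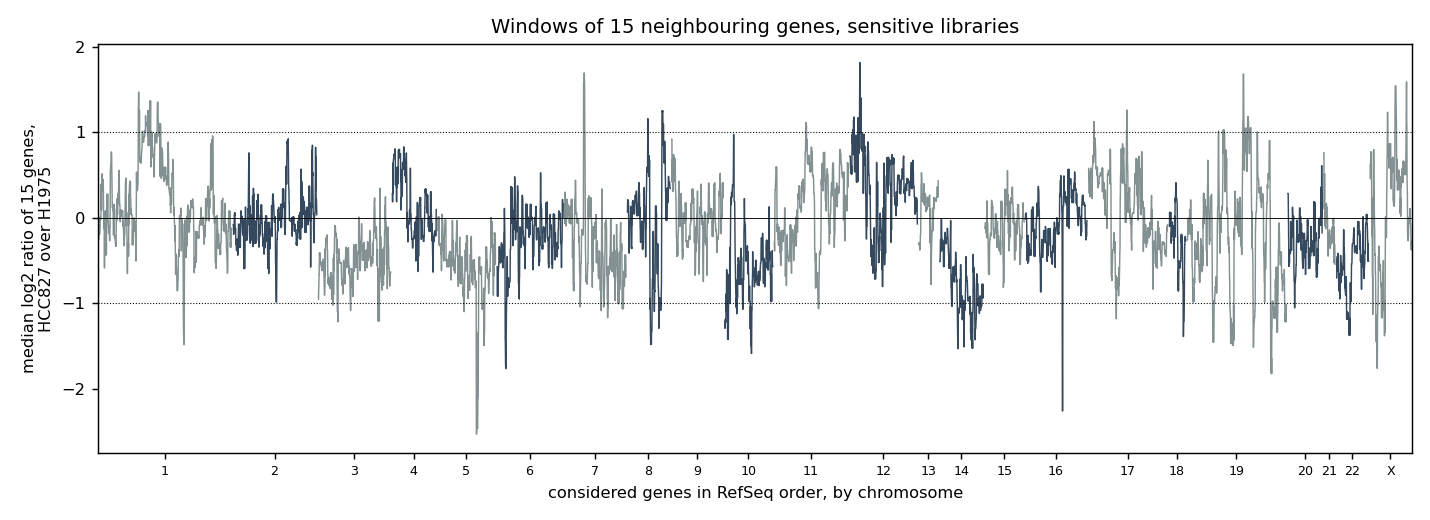
The line is the median log2 ratio of HCC827 over H1975 in windows of 15 neighbouring considered genes, in gene order along the chromosomes, which alternate in shade; dotted lines are at 1 and −1. Peaks above 1 are seen on chromosomes 1, 7, 12 and 19, and troughs below −1 on chromosomes 10, 14, 19 and 22.

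The genes beside EGFR and 2 cell cycle genes are described next; they were chosen after their values were seen. EGFR lies in a run of 21 genes on chromosome 7, from UPP1 to ZNF138 (median 0.99, 1.07 in the resistant pair). Its neighbour on one side, SEC61G, a subunit of the protein translocation channel, had 192 FPKM in H1975 and 1256 FPKM in HCC827 (log2 ratio 2.71 [2.64, 2.79]). On the other side LANCL2 had 8.76 FPKM in H1975 and 91.3 FPKM in HCC827 (log2 ratio 3.38 [3.27, 3.49]). VOPP1, beyond it, had 75.8 FPKM in H1975 and 691 FPKM in HCC827 (log2 ratio 3.21 [3.17, 3.26], shared reads). Of the 13 considered genes from 6 before to 6 after EGFR, 9 were higher, itself included, and 2 were lower. CDK4, the kinase that drives the cell through G1, had 142 FPKM in H1975 and 1141 FPKM in HCC827 (log2 ratio between 2.96 and 3.04, shared reads). Near it OS9, a lectin of the endoplasmic reticulum, had 115 FPKM in H1975 and 677 FPKM in HCC827 (log2 ratio 2.57 [2.54, 2.61]). AGAP2 had 3.3 FPKM in H1975 and 14.3 FPKM in HCC827 (log2 ratio 2.38 [2.19, 2.58]). TSPAN31, which lies next to CDK4, had 13.2 FPKM in H1975 and 67 FPKM in HCC827 (log2 ratio 2.35 [2.20, 2.50], shared reads). MARCHF9, on the other side of CDK4, had 1.07 FPKM in H1975 and 11.3 FPKM in HCC827 (log2 ratio 3.40 [3.03, 3.78]). Further along, METTL1 was at 29.1 and 18.4 FPKM and was not called. TSFM was lower, at 53.3 and 19.9 FPKM (log2 ratio −1.44 [−1.60, −1.27], shared reads). Beyond OS9, B4GALNT1 (log2 ratio −3.06 [−3.41, −2.73], shared reads), ARHGEF25 (−1.69 [−2.28, −1.14]) and DTX3 (−6.28 [−9.33, −4.41]) were lower as well. Of the 13 genes from 6 before to 6 after CDK4, 5 were higher, itself included, and 4 lower (median −0.60). In the resistant pair CDK4, OS9 and TSPAN31 had log2 ratios of −0.54, −1.13 and −1.05, and MARCHF9 one of 3.22.

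CDKN2A, which encodes an inhibitor of CDK4, had 699 counts in H1975 and 3759 in HCC827 (log2 ratio 3.45 [3.33, 3.56], shared reads) and, in the resistant libraries, 24.2 and 0.4 FPKM. Its neighbour MTAP had 11.2 and 20.4 FPKM in the sensitive pair and was not called (log2 ratio 0.87 [0.75, 0.98], shared reads). CDKN2B was lower (log2 ratio −1.23 [−1.48, −0.98], shared reads). Of 13 genes from 6 before to 6 after CDKN2A, 3 were higher and 2 lower in the sensitive pair, against 0 higher and 11 lower in the resistant pair. CDKN1A, another CDK inhibitor and a p53 target, had 48.5 FPKM in H1975 and 3.2 FPKM in HCC827 (log2 ratio −3.94 [−4.29, −3.61]).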

How the data were processed

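Per the labels, RNA was extracted with TRIzol and sequenced from MGIEasy mRNA libraries. Reads were processed against hg19 with HISAT2, Bowtie2 and RSEM, per the submitters' processing notes; neither versions nor settings, annotation or strand handling were found in the labels. Per the file headers, the authors deposited RSEM expected counts, FPKM and transcript lists per gene. Only genes above 0 are listed, with a lowest FPKM of 0.01. Depth was 22145163 and 22217897 counts in H1975 and 10934558 and 11034837 in HCC827.

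Counts were rounded and scaled to library totals. Intervals are exact conditional binomial (Clopper-Pearson) intervals at 95% and, as no molecular identifiers are described, cover counting error only. For a gene at 0, 3 counts in that library stood in as the floor. The ratio is then set by the floor, and the 95% interval can reach a smaller difference. The 4-library fit used edgeR 4.0.16 (R 4.3.3) with TMM factors, filterByExpr and 0 for unlisted genes; DESeq2 1.42.0 was an alternative. The calls and the edgeR fit were tested on simulated data. Symbols, found for 15149 of 15171 genes, gene order and promoters came from RefSeq, GRCh38.p14, and no hg19 coordinate was converted.

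Members and the 41 gene lists were chosen with earlier results of these data known. Some lists share members, such as S100A7 in the squamous and S100 lists, so their counts are not separate observations. Named genes are, per direction, the 10 largest called ratios with at least 10 FPKM and the 6 most abundant called genes, the 3 largest called members of each list, 14 genes always given, the 6 genes called oppositely in both pairs with the largest difference, and the ends and most different gene of each run; others are said to be chosen after their values were seen. Not all are printed, and a few are not reported here.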

Additional observations from a re-analysis of the deposited data

Results flagged for a closer look

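For the 5 genes below the HCC827 to H1975 difference was called in opposite directions in the sensitive and the resistant pair. With 1 library per group the difference between the pairs was not tested. The value in each sentence is the resistant minus the sensitive log2 ratio.

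APOE, a lipid carrier, had 203 counts in H1975 and 2 in HCC827 among the sensitive libraries, and 2 and 70 among the resistant ones (11.79). MAOB, a monoamine oxidase, had 106 and 5 counts in the sensitive pair and 1 and 89 in the resistant pair (10.87). HLA-DRA had 232 and 3 counts, then 0 and 45 (10.17, formed with the floor of 3 counts for the 0). HLA-DPA1, also of MHC class II, had 136 and 0 counts, then 1 and 24 (10.08, with the floor and with shared reads). CDKN2A went the other way, with 699 and 3759 counts, then 600 and 5 (−9.34, shared reads). In the first 4 genes the high libraries were sensitive H1975 and resistant HCC827, and in CDKN2A both H1975 libraries and sensitive HCC827 exceeded resistant HCC827.

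Genes with a row in 1 line alone were left out of the comparison. The annotations of the lines differ, so a missing row and an absent transcript cannot be told apart. There were 412 in sensitive HCC827 (58 at or above 1 FPKM and 20 counts, 0.169% of counts) and 1414 in sensitive H1975 (171, of which 99 had a symbol, 0.250% of counts). The 3 most abundant in HCC827 were SFTA2, a surfactant-associated gene, at 174.75 FPKM, CALB1, a calcium-binding protein, at 79.87 FPKM, and GJB1, a gap junction protein, at 67.58 FPKM. The 3 most abundant in H1975 were the metallothionein MT1E at 470.87 FPKM and the cancer-testis genes CT45A1 at 136.79 FPKM and CT45A7 at 45.9 FPKM; CT45A genes are near-identical copies.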

How the results depend on the processing

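Counts of called genes in the sensitive pair stayed within 1.5 times the reported 1599 and 2097 under TMM factors (1623 and 1957), median-of-ratios size factors (1625 and 1906), no filter (2133 and 2390), and scaled counts or FPKM alone (1692 and 2175, 1662 and 2374). A filter of 5 FPKM left 1018 higher genes. Genes with whole expected counts gave 764 and 1200 (11.98% and 18.8% of 6377). Genes with the same transcripts, predicted models included, an alternative chosen after seeing the data, gave 583 and 812 of 4276; these 2 alternatives consider fewer genes. The share of calls that were higher was 43.3%, and 38.9% to 47.2% over the alternatives. In 18 lists of at least 5 considered members, as many members or more were called in 1 direction as not, and in 15 to 18 under the alternatives.

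In the 4-library fit DESeq2 called 1641 higher and 1368 lower, including 893 and 667 of edgeR's 900 and 669. Without the response term edgeR called 535 and 374; the cause was not tested. Leaving out 1 library, which also drops that term, gave 0 to 0 higher and 0 to 0 lower genes by edgeR, with 1186 to 1858 and 1058 to 1921 at an unadjusted p under 0.05 (2465 and 2247 with all 4). No named gene and no list median of at least 1 in size changed sign under the alternatives run, but 4 lists with medians from −0.05 to 0.04 did (TGF-beta, CDK inhibitors, ribosomal proteins and other receptor kinases). List medians moved by 1.5-fold or more in 8 of 41 lists as log2(FPKM + 1) differences, all 8 toward 0, in 2 by the FPKM ratio (MHC class II and matrix, toward 0) and in 1 with the same curated transcripts (EGFR family, away from 0). With TMM factors 346 of 350 named genes kept their call, CCNE1, BAK1, WDR83 and ANKEF1 falling below 2-fold; by FPKM 338 of 341 did. No paired analysis was possible because each group has 1 library and the labels give no replicate numbers. Depth limits genes with few counts, mostly in HCC827.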
